A study of Nymphaea colorata and Nymphaea micrantha with 16 samples.

Results

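Water lily leaves start as rolled blades under water, lengthen on their stalk, reach the water surface and then unfold into floating pads. In viviparous water lilies a new plantlet forms on the leaf itself, at the centre of the blade where the stalk joins it, and in other species the leaf stays a leaf. The comparison described here was taken at the turning point of that development, when the blade was still partly rolled and its tip had just touched the water surface, which is stage 3 of the study. It set 2 libraries of the viviparous species Nymphaea micrantha (X-species, libraries X3-1 and X3-2) against 2 libraries of the nonviviparous species Nymphaea colorata (L-species, libraries L3-1 and L3-2), 4 of the 16 leaf RNA-seq libraries of the study.

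The other 12 libraries are 2 of each species at stage 1 (small rolled leaf under water), stage 2 (longer rolled leaf under water) and stage 4 (leaf fully unfolded on the surface). All plants were wild type, untreated and grown in containers of soil and water at the same garden in the same season, so no allele or agent separates the groups, and each library came from leaves of several plants mixed together. Vivipary is borne by only 1 of the species, so it cannot be told apart from any other difference between N. micrantha and N. colorata. The labels do not say that the 2 libraries of a group are separate plants, the study describes more repeats than the 2 libraries a group analysed here, and p-values measure the spread between these pools. Genes were kept where the level in fragments scaled to gene length and library size (FPKM) reached 1 in at least 2 of the 4 stage 3 libraries, which left 16578 of 31475 genes. The log2 differences below are X3 minus L3 of log2(FPKM + 1), which understates the change of low genes, and a gene was called where limma's Benjamini-Hochberg adjusted p was under 0.05 and the difference was at least 1 in size.

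L3-1 and L3-2 held 42545261 and 37118842 reads in genes, and X3-1 and X3-2 held 28702202 and 27650265. Genes at 1 FPKM or more numbered 16141 and 16339 in L3 and 14678 and 14559 in X3, and the median FPKM of the tested genes was 12.2 and 12.4 in L3 against 9.58 and 9.15 in X3. The 10 genes with most reads took 5.56% and 5.17% of reads in L3 but 10.5% and 11.0% in X3. Both species were counted on 1 set of gene models, so lower expression and poorer matching of X-species reads to those models cannot be told apart for a gene that was lower in the X-species at every stage. Some genes lower in X3 had X-species levels as high as those of N. colorata at another stage, such as NC1G0181420, a regulator of a cyclin-dependent kinase, at means of 39.4 FPKM in X2 and 38.0 FPKM in L2. The leaf lists were present in every stage 3 library, with a summed level of chlorophyll binding genes of 2050 to 3000 FPKM in L3 and 4640 to 4920 FPKM in X3. The lists of other tissues were low, at 102 to 109 FPKM in L3 and 90.5 to 98.4 FPKM in X3 for shoot meristem identity (1 and 4 of 12 genes at 0), 38.0 to 39.9 and 25.5 to 30.2 FPKM for root hair elongation (0 and 2 of 5 genes at 0), and 168 to 193 and 113 to 114 FPKM for pollen tube growth (2 and 1 of 22 genes at 0). Reads of genes otherwise private to N. micrantha were looked for in the L1 and L3 libraries only. The L2, L4 and X libraries were not checked in this way. In this check a library of another stage stood apart from its label. L1-1 had reads for 12 of 15 genes that were at 0.05 FPKM or less in every L library of stages 2, 3 and 4 and at 10 FPKM or more in both X1 libraries, at a median of 3.74% of the X1 level. L1-2 had reads for 0 of these 15 genes. By the same rule, taken over L1-2 and the L libraries of stages 2 and 4, L3-1 and L3-2 had reads for 4 and 3 of 13 genes, at a median of 0% of the X3 level.

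At stage 3 the leaves of the 2 species differed in 5082 of 16578 genes, or 30.7% of those tested. N. micrantha was higher for 1167 genes (7.04%) and lower for 3915 (23.6%), so 77.0% of the called genes were lower in the viviparous species. The median log2 difference over all tested genes was -0.31. Rescaling each library by the median ratio of its genes brought that median to -0.07, and the calls then split into 1685 higher and 3126 lower genes (65.0% lower). The called genes had a median log2 difference of 1.52 in the higher set and -1.60 in the lower set, and 324 and 1255 of them reached a size of 2. Of the higher genes, 178 had no read in either L3 library, and 45 of these had none in any of the 8 L-species libraries. Of the lower genes, 634 had no read in either X3 library and 457 had none in any X-species library. The scatter of species means shows these genes as the points along each axis.

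**Figure D1:**
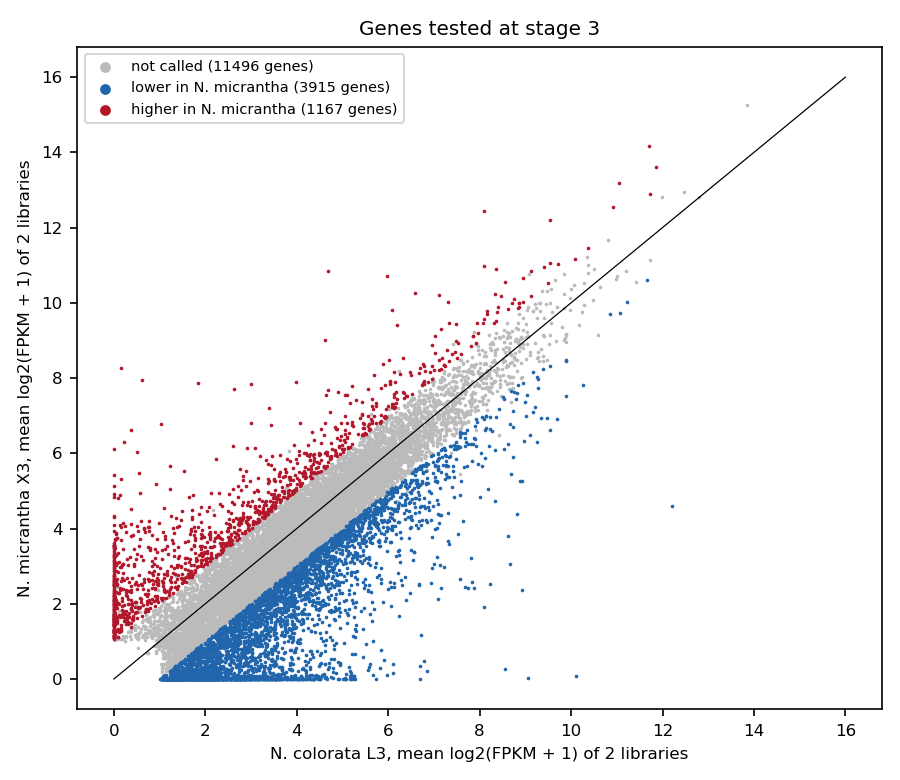
Mean log2(FPKM + 1) of the 2 L3 libraries (horizontal axis) against that of the 2 X3 libraries (vertical axis), 1 point for each of the 16578 tested genes, with genes called higher in X3 (1167) and lower in X3 (3915) in colour. The points below the diagonal outnumber those above it, and genes without reads in 1 species lie along that axis.

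Many of the annotated genes with the largest differences were at or near 0 in 1 of the species. NC6G0255230, a structural protein of microtubules with GTPase activity, stood at 0.0833 and 0.143 FPKM in L3 and 296 and 315 FPKM in X3. Both X3 libraries lay far above both L3 libraries, with a log2 difference of 8.11 ± 0.86 (SE), adjusted p = 9.4e-06. NC5G0141020, a calcium-dependent protein kinase, had no read in L3 and 32.6 and 35.9 FPKM in X3, at least 176-fold higher against a floor of 3 reads per library. NC6G0252890, annotated as a nutrient reservoir protein, likewise had no L3 read and 65.1 and 72.1 FPKM in X3, at least 1294-fold higher. NC1G0131220 of starch and sucrose metabolism was listed at 0.201 and 0.115 FPKM in L3 and 103 and 59.8 FPKM in X3. NC1G0102220, which splits the transport sugar raffinose, was at 0.364 and 0.552 FPKM in L3 and 49.1 and 39.1 FPKM in X3. NC2G0033670, an inhibitor of serine proteases, was at 1.31 and 4.62 FPKM in L3 and 214 and 249.9 FPKM in X3, and its log2 difference was 6.01. The other 2 annotated genes at this end, NC7G0235030 of phenylalanine breakdown and the RNA-binding NC3G0207710, had log2 differences of 5.54 and 5.16. Beside these, jasmonic acid gene NC2G0007580 and lignin gene NC8G0305650 complete the 10 and are described with their pathways.

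At the other end stood, among others, genes of lipid metabolism. NC6G0251710, an esterase of lipid breakdown, was at 89.2 and 119 FPKM in L3 and 0.260 and 0.270 FPKM in X3. NC2G0001730, an acyltransferase of isoprenoid synthesis, was at 469 and 345 FPKM in L3 and 7.35 and 7.28 FPKM in X3. In both, each L3 library exceeded each X3 library by far, with log2 differences of -6.36 ± 0.29 (SE), adjusted p = 8.9e-09, and -5.60 ± 0.30 (SE), adjusted p = 3.5e-08. The lipid-transport gene NC7G0289580 was at 333 and 163 FPKM in L3 and 3.72 and 5.08 FPKM in X3. Oxylipins are the signalling fats to which jasmonate belongs, and the oxylipin gene NC1G0193000 was at 242 and 211 FPKM in L3 and 6.19 and 3.92 FPKM in X3. NC10G0232830, which helps to assemble clathrin coats in endocytosis, stood at 101 and 117 FPKM in L3 and 0.937 and 0 FPKM in X3. NC2G0286220, a component of nucleosomes, and the helicase NC3G0228500 had 3 and 1 reads over both X3 libraries, which puts the L3 to X3 ratio at 531 (95% counting interval 182 to 2578) and 685 (123 to 27100). Among genes without annotation, NC11G0244170 went from 93.0 and 5.95 FPKM in L3 to 1782 and 1900.2 in X3, with L3 libraries that differed widely from each other. NC2G0009170 was at 0.938 and 0.228 FPKM in L3 and 229 and 261 FPKM in X3. NC8G0059860 and NC7G0308600 were at 1319 and 929.6 and at 540.3 and 524 FPKM in L3 and had 1 read each over both X3 libraries. For NC7G0308600 the X1 libraries differed widely, with 219 FPKM in X1-1 and 1.64 FPKM in X1-2. The higher level rests on 1 library, and its source was not tested.

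The gene groups that follow come from the pathway and ontology lists of the study, in the part that could be read. The study put genes into these lists because they differed between the species, so a list's count is no independent evidence of its direction, and lists share genes. Together the lists held 558 different tested genes, of which 88 (15.8%) were called higher and 211 (37.8%) lower in X3, beside 7.04% and 23.6% of all tested genes. The bar plot gives the shares by list.

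**Figure D2:**
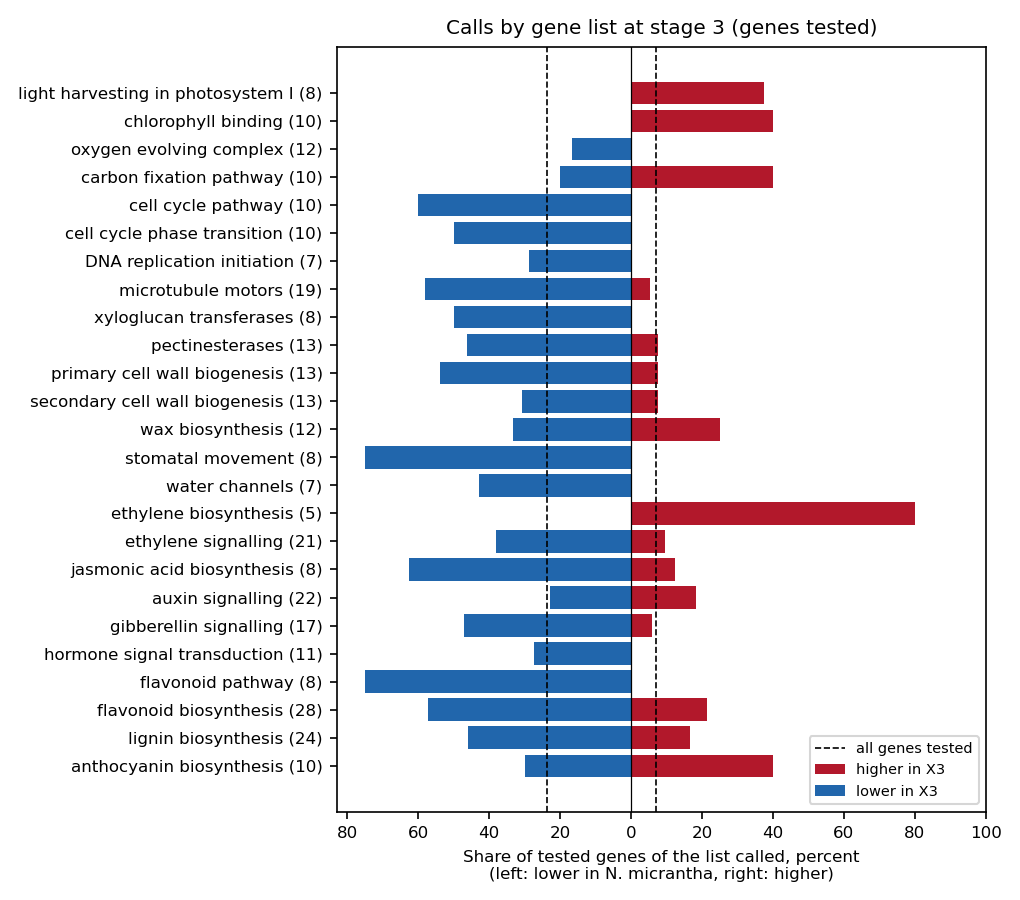
Share of the tested genes of a list, in percent, called higher (right bars) and lower (left bars) in X3 than in L3, with the number of tested genes in brackets and dashed lines at the shares over all tested genes (7.04% and 23.6%). Cell cycle, motor, stomatal movement and flavonoid pathway lists lie to the left, and light harvesting, chlorophyll binding and ethylene biosynthesis lie to the right.

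Light harvesting was on the side of N. micrantha. Light-harvesting proteins hold the chlorophyll that catches light and hand its energy to the photosystems, and 3 of 8 genes of light harvesting in photosystem I and 4 of 10 genes of chlorophyll binding were higher in X3, with none lower. The antenna gene NC3G0227450 was at 190.3 and 107 FPKM in L3 and 370.3 and 374 FPKM in X3. NC7G0235150 was at 440.2 and 254 FPKM in L3 and 814 and 902 FPKM in X3, and NC10G0042980 at 113 and 106 FPKM in L3 and 235 and 245 FPKM in X3. The X3 libraries lay above the L3 libraries in each of these, with log2 differences of 1.37 ± 0.34 (SE), adjusted p = 0.0052, of 1.36 ± 0.40 (SE), adjusted p = 0.014, and of 1.12 ± 0.29 (SE), adjusted p = 0.007. NC2G0033530, the fourth called gene, was at 606 and 357 FPKM in L3 and 995 and 1033 FPKM in X3. In all of them L3-1 was above L3-2, and over 43 tested genes of the light reactions 37 were lower in L3-2 than in L3-1, by a median log2 difference of -0.31. Without L3-2 the light-harvesting count fell to 1 of 8 and the chlorophyll-binding count to 1 of 10, and without X3-2 each was 2. Of the 4 genes named, NC10G0042980 kept its call with any library left out, NC3G0227450 lost it without L3-2, NC7G0235150 without L3-2 or X3-2, and NC2G0033530 without L3-2, X3-1 or X3-2 and with no filter.

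The sign of this difference was not the same at every stage. The median log2 difference of the 8 light-harvesting genes was 1.60, 0.28, 1.00 and -1.41 from stage 1 to stage 4, when the unfolded leaves of N. colorata held more of these transcripts. In NC7G0235150 the X-species means at stages 1, 2, 3 and 4 were 1026, 603, 858 and 442 FPKM, and the L-species means 207, 333, 347 and 1168 FPKM. The highest mean was thus at stage 1 in N. micrantha and at stage 4 in N. colorata. Over all 43 genes of the light reactions, the 4 stage 3 libraries were more even, with 7 genes higher, 6 lower and a median of 0.06. The electron transport gene NC3G0227410 was at 626 and 386 FPKM in L3 and 1494 and 1722 FPKM in X3, a call lost without L3-2. The oxygen-evolving complex, which splits water in photosystem II, had 0 of 12 genes higher and 2 lower (1 higher and 2 lower after median-ratio scaling). The lower share was 16.7%, beside 23.6% of all tested genes, and the median log2 difference was 0.06. The summed level of this list was 1710 to 2240 FPKM in L3 and 2260 to 2510 FPKM in X3. A lower gene of low level was NC9G0272520, at 3.10 and 3.02 FPKM in L3 and 0.0767 and 0.159 FPKM in X3. NC14G0114720 of photosystem II repair was at 61.9 and 48.9 FPKM in L3 and 12.7 and 16.9 FPKM in X3. Of 8 tested genes of chlorophyll biosynthesis 2 were higher and 2 lower. NC9G0272660, a higher gene, had 2 reads in L3 and 12.03 and 12.1 FPKM in X3, a ratio of 930.2 (95% counting interval 257 to 7689).

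Rubisco fixes carbon dioxide in photosynthesis, and the gene annotated with its carboxylase activity, NC7G0247280, was the most read gene of both species. It stood at 19521 and 11087 FPKM in L3 and 38949.8 and 39955 FPKM in X3, which was 2.08% and 1.18% of reads in L3 and 4.15% and 4.26% in X3. The X3 libraries were above both L3 libraries, but the difference of 1.42 ± 0.70 (SE), adjusted p = 0.11, missed the threshold. This SE comes from a spread shared over all 16 libraries, and L3-1 was well above L3-2. Within N. micrantha the gene was called higher at stage 3, by 2.40 on the log2 scale over the mean of the other stages (adjusted p = 0.011), where its means were 11612, 7645 and 5475 FPKM at stages 1, 2 and 4. N. colorata means there were 2729.7, 7958 and 12239.6 FPKM, and its stage 3 difference from the other stages was not called (1.28, adjusted p = 0.13). Of 10 carbon fixation genes 4 were higher and 2 lower in X3. Starch and sucrose metabolism had 4 higher and 3 lower of 9, with 1 lower after median-ratio scaling or without L3-1.

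Genes of cell division were on the side of N. colorata. Cyclin-dependent kinases and their cyclins drive a cell from one phase of its cycle to the next, MCM helicases open DNA for replication, and kinesins are motors that move along microtubules, among them those of the spindle. Of 48 different division genes tested, 25 were lower (52.1%) and 4 higher (8.33%) in X3. Over all tested genes 23.6% were lower and 7.04% higher, and over the genes of every list 37.8% and 15.8%. Both L3 libraries were above both X3 libraries in 33 of the 48, beside 55.6% of all tested genes. The cell cycle pathway had 0 of 10 genes higher and 6 lower, cell cycle phase transition 0 and 5 of 10, microtubule motors 1 and 11 of 19, and DNA replication initiation 0 and 2 of 7. In bulk leaf, fewer dividing cells and less RNA of these genes in each cell cannot be told apart.

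NC1G0136320, which regulates a cyclin-dependent kinase, was at 9.69 and 11.2 FPKM in L3 and 1.10 and 0.594 FPKM in X3. NC11G0120190 of the same kind was at 8.63 and 9.97 FPKM in L3 and 1.56 and 1.21 FPKM in X3. Neither overlapped between the species, with log2 differences of -2.64 ± 0.29 (SE), adjusted p = 1.2e-05, and -2.11 ± 0.25 (SE), adjusted p = 2.1e-05. A further kinase regulator, NC1G0181420, was at 3.04 and 9.40 FPKM in L3 and 0.939 and 0.942 FPKM in X3. Its X3 libraries agreed closely while L3-2 was well above L3-1, and the log2 difference was -1.74 ± 0.35 (SE), adjusted p = 0.0014. The kinesin NC6G0257440 was at 22.6 and 20.6 FPKM in L3 and 2.00 and 2.05 FPKM in X3, and the kinesin NC8G0213970 at 1.11 and 6.85 FPKM in L3 and 0.349 and 0.264 FPKM in X3. The first separated the species in every library, with -2.90 ± 0.31 (SE), adjusted p = 1e-05, whereas the second was carried by L3-2. The MCM helicase genes NC4G0153740 and NC9G0114400 were at 2.84 and 6.96 FPKM in L3 and 1.15 and 1.30 FPKM in X3, and at 4.66 and 9.58 FPKM in L3 and 2.78 and 2.31 FPKM in X3. Here also L3-2 held more than L3-1. Over the 48 division genes, 37 were higher in L3-2 than in L3-1, by a median of 0.34 on the log2 scale, beside 8937 of all 16578 tested genes and a median of 0.02. Without L3-2, 4 in place of 11 motor genes were lower in X3, 0 in place of 2 replication initiation genes, and NC8G0213970, NC4G0153740 and NC9G0114400 lost their calls, whereas the cell cycle pathway count was still 6 of 10. NC4G0153740 and NC9G0114400 also lost their calls without X3-1 or X3-2, NC9G0114400 after median-ratio scaling and NC8G0213970 with the 4 stage 3 libraries alone. The replication initiation count was also 0 without X3-2, and 1 without X3-1 or after median-ratio scaling. Cell cycle phase transition had 1 higher gene without L3-2 or after median-ratio scaling. A pathway list of DNA replication with 4 tested genes ran the other way, with 3 higher and 1 lower.

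In N. micrantha, most division transcripts had their lowest mean at stage 3. The X3 mean was the lowest of the 4 X-species stages in 37 of the 48 genes, beside 37.2% of all tested genes, and 24 were called lower in X3 than in the mean of the other X stages, beside 4.27% of all tested genes. In N. colorata the lowest mean was at stage 4 in 38 of 48, beside 40.0% of all tested genes. Stage 3 was already low in part of them there too. In L3, 15 of the 48 were called lower than in the mean of the other L stages, beside 424 of all 16578 tested genes. NC1G0181420 shows both courses, with X-species means of 35.7, 39.4, 0.940 and 2.06 FPKM and L-species means of 45.7, 38.0, 6.22 and 0.340 FPKM from stage 1 to stage 4. The median species difference of the group was -0.76, -0.25, -1.08 and 0.97 at stages 1 to 4. Stage 3 thus held the largest median difference toward N. colorata of the 4 stages, and at stage 4 the median was on the side of N. micrantha. Over all tested genes the median was also lowest at stage 3, at -0.22, -0.18, -0.31 and 0.003 at stages 1 to 4. Of the 48 division genes, 3 were called more negative at stage 3 than in the mean of the other stages, beside 367 of all 16578 tested genes. The cell cycle pathway list did not change side, with medians of -1.22, -1.02, -1.67 and -1.09.

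**Figure D3:**
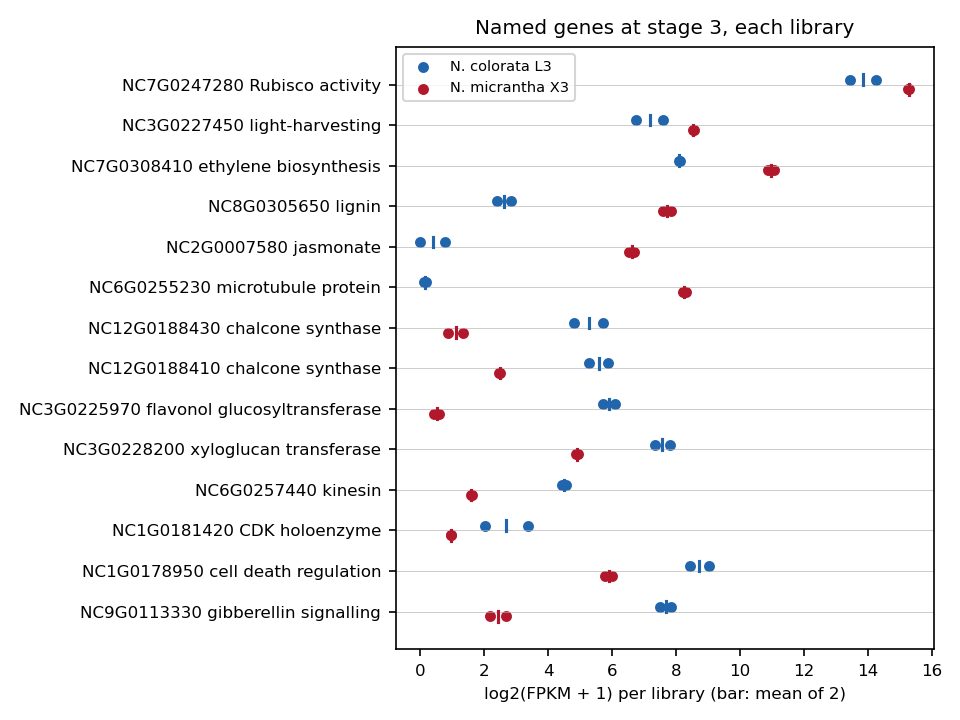
Level of 14 named genes in the 4 stage 3 libraries as log2(FPKM + 1), 1 point per library and a bar at the mean of 2, N. colorata L3 in blue and N. micrantha X3 in red. The points of the species do not overlap for any gene shown, and for NC1G0181420 the L3 points lie far apart (3.04 and 9.40 FPKM).

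Among genes that build and loosen the cell wall, most of those called were higher in N. colorata. Xyloglucan transferases cut and rejoin the chains that tie cellulose fibres together, and 4 of 8 were lower in X3 with none higher. Pectinesterases change the charge and stiffness of pectin (1 higher and 6 lower of 13), and primary wall biogenesis had 1 higher and 7 lower of 13. Over 55 wall genes, 3 were higher (5.45%), 25 lower (45.5%) and the median log2 difference was -0.88. Over all tested genes 7.04% were higher and 23.6% lower, and over the genes of every list 15.8% and 37.8%. The xyloglucan transferase NC3G0228200 was at 161 and 222 FPKM in L3 and 29.6 and 28.2 FPKM in X3, and NC3G0226960 at 35.4 and 23.4 FPKM in L3 and 5.50 and 4.32 FPKM in X3. The species did not overlap in either, with -2.67 ± 0.76 (SE), adjusted p = 0.011, and -2.34 ± 0.45 (SE), adjusted p = 0.00098. The pectinesterase NC5G0159290 was at 71.2 and 43.2 FPKM in L3 and 10.6 and 10.6 FPKM in X3, and the cellulose synthase NC6G0155970 at 47.9 and 35.0 FPKM in L3 and 9.12 and 8.19 FPKM in X3. The callose synthase NC11G0058160, which makes the wall polymer laid down at sieve plates and plasmodesmata, was at 36.4 and 34.9 FPKM in L3 with no read in X3, at least 190.3-fold lower. The exception among pectinesterases was NC10G0043940, at 7.60 and 4.91 FPKM in L3 and 25.6 and 25.0 FPKM in X3. In the unfolded leaf its X4 mean was 320.0 FPKM against 14.2 in L4. In N. colorata 18 of the 55 wall genes were called higher at stage 3 than in the mean of its other stages (5.75% of all tested genes), and 13 were in N. micrantha (3.69% of all tested genes). The call of NC3G0228200 was lost without L3-2 or X3-2.

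The surface of a leaf that meets air is sealed by cutin and wax, and these lists were mixed. Wax biosynthesis had 3 higher and 4 lower of 12 genes, and cutin biosynthesis 1 and 3 of 11, with 0 higher without L3-1 or X3-1. NC1G0177610, a 3-ketoacyl-CoA synthase that lengthens the fatty acids of wax, was at 3.33 and 1.71 FPKM in L3 and 9.38 and 9.01 FPKM in X3. NC1G0181800, which joins alcohols and fatty acids into wax esters, was at 4.16 and 2.57 FPKM in L3 and 0.156 and 0.424 FPKM in X3. The first was higher and the second lower in X3, with 1.57 ± 0.21 (SE), adjusted p = 6.9e-05, and -1.74 ± 0.19 (SE), adjusted p = 1.3e-05. NC12G0187130 of cuticle formation was at 37.8 and 47.8 FPKM in L3 and 98.4 and 81.8 FPKM in X3, a call lost without L3-1 or X3-1.

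Water channels let water through membranes, and stomata open the leaf to air. The called genes of both lists were lower in N. micrantha. Of 7 water channels 3 were lower and none higher. The median log2 difference of this list was -0.76 at stage 3 and -0.78, -1.07 and -0.99 at stages 1, 2 and 4. The vacuolar channel NC12G0188320 was at 629 and 611 FPKM in L3 and 215 and 206 FPKM in X3, and NC1G0088640 at 233 and 267 FPKM in L3 and 55.2 and 47.3 FPKM in X3. NC7G0292490 was the third, at 526 and 735 FPKM in L3 and 265 and 235 FPKM in X3. In stomatal movement 6 of 8 genes were lower and none higher. NC5G0267750 was at 20.8 and 14.5 FPKM in L3 with no X3 read, at least 43.2-fold lower. NC1G0107650 of guard cell differentiation was at 15.2 and 19.8 FPKM in L3 and 0.113 and 0.117 in X3, where it had 2 reads in all, a ratio of 151 (95% counting interval 41.5 to 1251). Stomatal movement was as low or lower in the X-species at the other stages, with medians of -1.92, -1.96 and -1.69 against -1.41 at stage 3. Genes of the regulation of stomatal closure had 4 higher and 4 lower of 12 (6 and 4 after median-ratio scaling, 1 and 4 without X3-1 and 2 and 4 without L3-2).

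Ethylene, the gaseous hormone that collects in submerged tissue and governs elongation, ripening and senescence, had most of its synthesis genes higher in N. micrantha. Of 5 tested genes of ethylene biosynthesis 4 were higher and none lower, with a median log2 difference of 1.81. NC7G0308410, an ascorbate-binding enzyme of this list, was at 272 and 275 FPKM in L3 and 2143 and 1884 FPKM in X3. Its X3 libraries lay well above L3, with 2.87 ± 0.77 (SE), adjusted p = 0.0082, and within N. micrantha stage 3 held its highest mean, against 334, 678 and 288 FPKM at stages 1, 2 and 4. NC6G0257770 of the same kind was at 12.6 and 6.32 FPKM in L3 and 56.0 and 55.2 FPKM in X3, and NC3G0223030 at 0.381 and 0.259 FPKM in L3 and 2.68 and 2.37 FPKM in X3. The protein kinase NC8G0217780, listed with ethylene biosynthesis and leaf senescence, was at 62.1 and 38.3 FPKM in L3 and 176 and 170.3 FPKM in X3. The call of NC6G0257770 was lost without L3-2, which left 3 of 5. Ethylene signalling ran the other way, with 2 of 21 genes higher (1 without L3-1 or X3-1) and 8 lower. A higher gene was the transcription factor NC12G0095590, at 2.04 and 1.04 FPKM in L3 and 13.6 and 13.8 FPKM in X3. The transcription regulator NC12G0250460 was at 4.51 and 3.96 FPKM in L3 with no X3 read, at least 42.7-fold lower.

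Jasmonic acid, a hormone of wounding and defence made from membrane fats, had 1 of 8 biosynthesis genes higher and 5 lower (3 and 5 after median-ratio scaling, 2 and 5 without L3-1), with a median of -1.44. The gene called higher on the deposited scale was NC2G0007580, a fatty acid desaturation gene by its terms, at 0.704 and 0 FPKM in L3 and 102 and 91.2 FPKM in X3. The ligase NC7G0175800 was at 67.4 and 75.0 FPKM in L3 and 13.9 and 12.9 FPKM in X3. Auxin patterns the leaf and its veins, and its signalling list was mixed, with 4 higher and 5 lower of 22. The amido synthetases NC8G0240630 and NC8G0240640, which tie auxin to amino acids and take it out of use, stood at 10.4 and 9.66 and at 4.51 and 5.39 FPKM in L3. In X3 the first was at 0.0703 and 0.0547 FPKM and the second had no read, at least 17.4-fold lower. These are neighbours by their numbers, and reads that fit both could be split between them. NC5G0159960, a glutathione transferase of the auxin list, was at 9.93 and 12.9 FPKM in L3 and 40.0 and 45.3 FPKM in X3. Gibberellin promotes stem and leaf elongation, and its signalling list had 1 higher and 8 lower of 17, led by NC9G0113330 at 230.1 and 180.2 FPKM in L3 and 3.58 and 5.45 FPKM in X3 and a difference of -5.24 ± 0.35 (SE), adjusted p = 2.3e-07. Abscisic acid biosynthesis had 2 higher (1 without L3-2 or X3-1) and 4 lower of 9. The dioxygenase NC12G0097550, which cuts carotenoids at the rate-limiting step of that path, was at 21.3 and 9.36 FPKM in L3 and 0.389 and 0.231 FPKM in X3, before means of 441 FPKM in L4 and 94.8 in X4. Cytokinin signalling had 1 higher and 5 lower of 15, and brassinosteroid signalling 2 higher (1 without X3-1) and 5 lower of 12. Over 132 hormone genes 20 were higher (15.2%) and 48 lower (36.4%). These shares were close to those over the genes of every list, 15.8% and 37.8%, beside 7.04% and 23.6% of all tested genes.

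The pathway list of hormone signal transduction had 0 of 11 genes higher (1 without L3-2) and 3 lower. NC7G0235790 was at 22.8 and 12.1 FPKM in L3 and 3.92 and 4.89 FPKM in X3. NC263970 was at 0.993 and 1.22 FPKM in L3 and 0.0545 and 0 in X3, below the filter. NC14G0174900 was at 15.6 and 17.9 FPKM in L3 and 8.25 and 9.06 FPKM in X3 and NC9G0168130 at 14.8 and 27.0 FPKM in L3 and 28.3 and 38.4 FPKM in X3, and the log2 differences of these, -0.87 (adjusted p = 0.24) and 0.69 (adjusted p = 0.079), were not called.

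Phenylpropanoid metabolism makes lignin, flavonoids and anthocyanins from phenylalanine, and its flavonoid branch was lower in N. micrantha. The flavonoid pathway had 0 of 8 genes higher (1 without L3-1 or X3-1, after median-ratio scaling or with voom) and 6 lower with a median of -2.20, and flavonoid biosynthesis 6 higher and 16 lower of 28. Chalcone synthase makes the first flavonoid skeleton. Of its 3 neighbouring genes, NC12G0188430 was at 51.7 and 27.2 FPKM in L3 and 0.829 and 1.53 FPKM in X3. NC12G0188410 was at 58.1 and 37.6 FPKM in L3 and 4.66 and 4.56 FPKM in X3, and NC12G0188420 at 12.5 and 5.49 FPKM in L3 and 0.729 and 1.04 FPKM in X3. L3-1 held more than L3-2 in each, and both L3 libraries were above both X3 libraries, with -4.17 ± 0.36 (SE), adjusted p = 1.9e-06, then -3.09 ± 0.29 (SE), adjusted p = 3.1e-06, and -2.32 ± 0.30 (SE), adjusted p = 5.5e-05. These 3 genes may share reads, since they are neighbours with the same annotation. NC3G0225970, which adds glucose to flavonols, was at 51.5 and 67.0 FPKM in L3 and 0.360 and 0.499 FPKM in X3. Among lignin genes 4 were higher and 11 lower of 24 (5 higher and 7 lower after median-ratio scaling). The hydroxycinnamoyl transferase NC3G0226690 of lignin synthesis was at 29.6 and 42.6 FPKM in L3 and 0.0764 and 0.159 FPKM in X3. On the other side NC8G0305650, known only by its lignin term, was at 4.30 and 6.11 FPKM in L3 and 190.4 and 228 FPKM in X3. Its X3 libraries exceeded L3 by 5.09 ± 0.20 (SE), adjusted p = 3.8e-09. Anthocyanin biosynthesis was balanced, with 4 higher and 3 lower of 10. In N. colorata 16 of 70 phenylpropanoid genes were called higher at stage 3 than in the mean of its other stages, beside 5.75% of all tested genes. In N. micrantha 9 of the 70 were, beside 3.69% of all tested genes.

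The most read genes had other roles. After the Rubisco gene, the highest in X3 was NC11G0302260, which has no annotation, at 3567 and 3077 FPKM in L3 and 17627 and 19064 FPKM in X3 and 2.47 ± 0.53 (SE), adjusted p = 0.0021. The defence gene NC9G0173960 was at 3657 and 3729 FPKM in L3 and 10848 and 14312 FPKM in X3, and NC10G0165680 of methionine and one-carbon metabolism at 3056 and 3742 FPKM in L3 and 7494 and 7827 FPKM in X3. Both were called, at 1.75 (adjusted p = 0.016, a call lost without L3-1, L3-2 or X3-2 and with no filter) and 1.18 (adjusted p = 0.015, lost without L3-1, X3-1 or X3-2 and with no filter), and the call of NC11G0302260 was lost with no filter. Also without annotation, NC4G0023200 was at 354 and 551 FPKM in L3 and 174 and 171 FPKM in X3 with -1.35 (adjusted p = 0.011, lost without L3-2 or X3-2), and NC2G0002140 was at 1793 and 2317 FPKM in L3 and 1819.5 and 1535 FPKM in X3 with -0.29 (adjusted p = 0.53). NC11G0302220 was at 4809 and 6778 FPKM in L3 and 7842 and 7932 FPKM in X3, with 0.47 and an adjusted p of 0.58.

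For 10 genes the study had designed primers. The study picked them from its own RNA-seq comparison, as the genes at the top in each direction. Their directions below were therefore set by that choice and are no independent evidence. The study also measured these genes by quantitative PCR and reported a significant difference between the species for all of them at every stage. Those measurements were not examined here. NC10G0233980, NC12G0185960, NC1G0018370, NC7G0175940 and NC9G0173300 were lower in X3. The highest of them in L3 was NC1G0018370, at 93.3 and 138 FPKM in L3 and 0 and 0.363 FPKM in X3, and NC12G0185960 was at 58.6 and 77.4 FPKM in L3 and 0.193 and 0.458 FPKM in X3. NC9G0112670, NC9G0112680, NC9G0113760, NC9G0113770 and NC9G0139150 had at most 2 reads over both L3 libraries and were higher in X3, except that NC9G0112680 was below the filter. NC9G0139150, of terpenoid backbone synthesis, was at 2.02 and 2.35 FPKM, at least 16.9-fold higher. NC9G0113770 was at 1.65 and 1.18 FPKM, at least 20.1-fold higher. The L-species means of these 5 genes were 0.133 FPKM or less at stages 1, 2 and 4 as well.

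To see what set stage 3 apart, its species difference was compared with those of the other stages, among 18160 genes at 1 FPKM or more in at least 2 of the 16 libraries. Most of the genes differed in the same direction at all stages. Of the 5082 genes called at stage 3, 4202 (82.7%) had the same sign of difference at stages 1, 2 and 4. On this gene set the species calls from stage 1 to stage 4 numbered 5079 (28%), 4597 (25.3%), 5228 (28.8%) and 5678 (31.3%). The species difference at stage 3 departed from the mean of the other stages in 530 genes (2.92%), which was toward N. micrantha in 146 (0.804%) and toward N. colorata in 384 (2.11%). Against single stages it departed in 975 genes from stage 1 (5.37%), 497 from stage 2 (2.74%) and 2842 from stage 4 (15.6%). These contrasts share the 4 stage 3 libraries. Leaving out X3-1 or X3-2 brought the 530 down to 143 or 106, leaving out L3-2 to 336, and leaving out X2-1 gave 843.

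On the deposited scale, within N. micrantha, 611 genes were higher (3.36%) and 873 lower (4.81%) at stage 3 than in the mean of its other stages, and within N. colorata 954 were higher (5.25%) and 621 lower (3.42%). After median-ratio scaling the balance within N. micrantha turned, with 852 higher and 705 lower, and in N. colorata 995 were higher and 534 lower. A gene was taken as set apart where the species difference at stage 3 was called against each of the other stages with 1 sign. There were 79 such genes (0.435%), 24 toward N. micrantha (0.132%) and 55 toward N. colorata (0.303%). They came about in different ways. Of the 24, 18 were called higher in X3 than in the other X stages, 5 lower in L3 than in the other L stages and 1 in neither. Of the 55, 29 were called higher in L3 alone, 17 lower in X3 alone, 2 in both and 7 in neither. The number rested on few libraries, being 46 without L2-1, 33 without L2-2, 26 without X3-1 and 25 without X3-2.

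**Figure D4:**
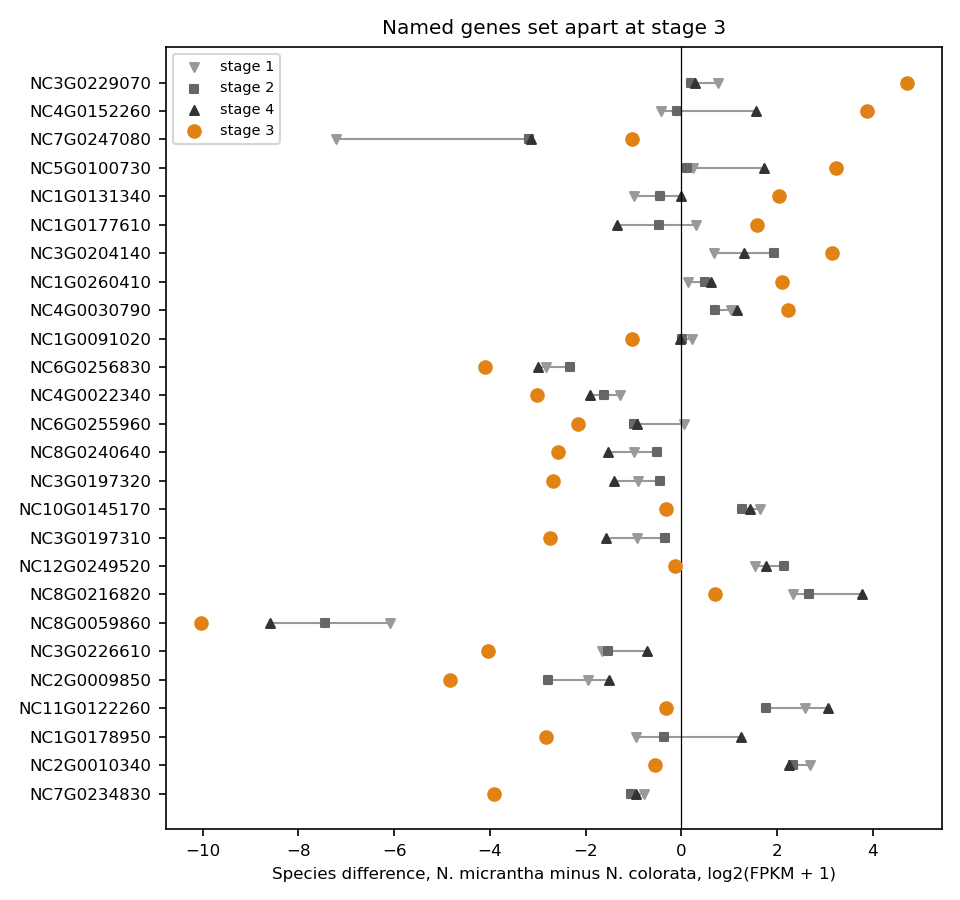
Species difference, N. micrantha minus N. colorata in mean log2(FPKM + 1), at stage 3 (orange) and at stages 1, 2 and 4 (grey markers joined by a line), 1 row for each named gene set apart at stage 3. The orange point lies to the right of all other markers of its gene in the upper rows and to the left in the lower rows.

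Of the 24 genes set apart toward N. micrantha, 7 had annotation, among them enzymes of small-molecule synthesis with their highest means in X3. NC4G0152260, annotated with fraxetin 5-hydroxylase activity, the step that makes the iron-binding coumarin sideretin in Arabidopsis, was at 0.121 and 0.111 FPKM in L3 and 14.5 and 16.3 FPKM in X3. Its X-species means at stages 1, 2 and 4 were 0.754, 0.978 and 2.31 FPKM, and the stage 3 difference exceeded those of the other stages by 3.52 ± 0.58 (SE), adjusted p = 0.0082. NC1G0131340, a decarboxylase of aromatic amino acids, was at 1.62 and 2.64 FPKM in L3 and 10.97 and 12.4 FPKM in X3, against 0.323, 2.05 and 0 FPKM in the X-species at stages 1, 2 and 4. NC1G0260410, a terpene synthase, had no read in L3 and 3.34 and 3.31 FPKM in X3, at least 141-fold higher, with 0.0977, 0.423 and 0.676 FPKM at the other X stages. Each of these was higher in both X3 libraries than in the mean of any other group. The methyltransferase NC5G0100730 had no read in any L-species library and 10.01 and 7.05 FPKM in X3, at least 22.0-fold higher. The redox gene NC3G0204140 was at 0.618 and 0.354 FPKM in L3 and 11.8 and 12.4 FPKM in X3, and the esterase NC4G0030790 at 3.68 and 3.74 FPKM in X3 with no L-species read. The wax gene NC1G0177610 belonged here as well, by 2.07 ± 0.25 (SE), adjusted p = 0.0014, where X3 was above X4 (2.05 FPKM) and L3 below L4 (6.77 FPKM). The largest departure of the 24 was that of NC3G0229070, which has no annotation and was at 0.0162 and 0.130 FPKM in L3 and 26.1 and 28.1 FPKM in X3. Its X-species means elsewhere were 0.957, 0.190 and 0.580 FPKM, and the departure was 4.29 ± 0.41 (SE), adjusted p = 0.00046. NC7G0247080, also without annotation, was set apart in the same direction with N. colorata low at stage 3, at 1.37 and 0.962 FPKM against means of 158, 9.35 and 20.4 FPKM. Both X3 libraries were under 1 FPKM, so the gene was below the stage 3 filter.

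Of the 55 genes set apart toward N. colorata, 15 had annotation, and among these, genes of phenylpropanoid metabolism stood beside genes of division and defence. The hydroxycinnamoyl transferase NC3G0226610 was at 17.2 and 15.0 FPKM in L3 and 0.0648 and 0.0224 FPKM in X3, against L-species means of 2.28, 2.28 and 0.705 FPKM at stages 1, 2 and 4. The peroxidase NC2G0009850 was at 34.0 and 34.6 FPKM in L3 and 0.259 and 0.219 FPKM in X3, against 3.56, 9.16 and 3.12 FPKM. Both peaked in L3 and stayed low in every X group, with departures of -2.73 ± 0.20 (SE), adjusted p = 6.3e-05, and -2.75 ± 0.21 (SE), adjusted p = 9.2e-05. The caffeate O-methyltransferase NC10G0145170 rose at stage 3 in N. colorata, to 35.3 and 30.3 FPKM from means of 3.70, 4.95 and 4.20, and met the X-species there at 24.4 and 27.3 FPKM. The lignan gene NC6G0256830 was at 147 and 130.5 FPKM in L3 and 5.96 and 8.51 FPKM in X3. Naringenin 3-dioxygenase NC8G0216820, which leads toward flavonols and anthocyanins, was low in both species at stage 3, at 0.693 and 2.18 FPKM in L3 and 3.02 and 2.51 FPKM in X3, after and before high X-species means of 50.8, 52.4 and 37.5 FPKM. NC2G0010340 of anthocyanin synthesis dropped likewise, to 0.113 and 0.936 FPKM in X3 from 12.5, 7.84 and 3.84 FPKM. The O-methyltransferase NC11G0122260 was at 2.66 and 4.13 FPKM in L3 and 2.27 and 2.73 FPKM in X3, against X-species means of 7.64, 9.74 and 7.42 FPKM.

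NC1G0178950, a protease gene of programmed cell death and systemic acquired resistance, was at 347 and 518 FPKM in L3 and 63.5 and 54.2 FPKM in X3. Its X-species means were 331, 632 and 52.8 FPKM at stages 1, 2 and 4 and its L-species means 630.4, 799 and 21.3 FPKM. The low level was thus reached at stage 3 in N. micrantha and at stage 4 in N. colorata, and in X3 the gene was called lower than in the other X stages (-1.88 on the log2 scale, adjusted p = 0.00052). NC3G0197310 and NC3G0197320, annotated to the replication fork and the centromere, were at 9.43 and 11.9 FPKM in L3 and 1.08 and 0.421 FPKM in X3, and at 7.07 and 8.58 FPKM in L3 and 0.267 and 0.490 FPKM in X3. The X3 mean was the lowest of the 8 groups in both, and the departures were -1.80 ± 0.29 (SE), adjusted p = 0.0066, and -1.76 ± 0.26 (SE), adjusted p = 0.0047. NC6G0255960, a cell cycle gene that binds cullins of the ubiquitin ligases, was at 5.60 and 6.41 FPKM in L3 and 0.703 and 0.423 FPKM in X3. NC4G0022340, of a microtubule-associated complex, was at 29.2 and 25.1 FPKM in L3 and 2.63 and 2.32 FPKM in X3. In these the L3 libraries were above the L-species means at stages 1, 2 and 4, which were 0.557, 1.85 and 1.48 FPKM and 7.39, 9.93 and 7.59 FPKM. NC12G0249520, which by its terms maintains shoot meristem identity and takes part in petal development, was 1 of the genes set apart with no species difference called at stage 3, as were NC10G0145170, NC11G0122260 and NC8G0216820. It was at 7.04 and 5.67 FPKM in L3 and 4.89 and 6.61 FPKM in X3, with a log2 difference of -0.13 (adjusted p = 0.66) at stage 3 and 1.54, 2.15 and 1.77 at stages 1, 2 and 4. The auxin amido synthetase NC8G0240640 and the secondary wall regulator NC1G0091020 were also set apart, by -1.56 and -1.11. Of genes without annotation, NC8G0059860 at 1319 and 929.6 FPKM in L3 was far above its L-species means of 66.9, 173 and 389, and NC7G0234830 was at 20.2 and 9.82 FPKM in L3 with no read in X3.

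**Figure D5:**
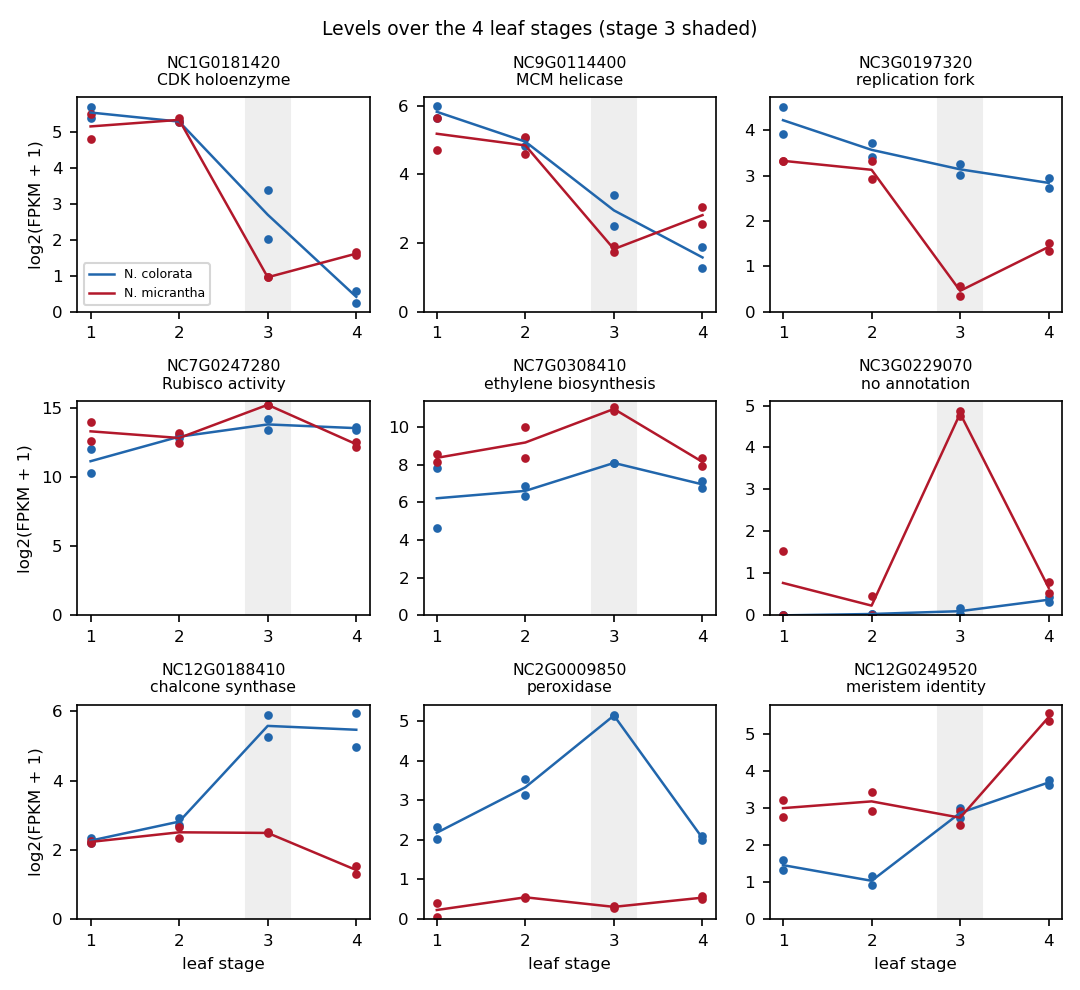
Level of 9 named genes at leaf stages 1 to 4 as log2(FPKM + 1), a point for each library and lines through the species means, with stage 3 shaded. NC1G0181420 and NC9G0114400 are lowest at stage 3 in N. micrantha and at stage 4 in N. colorata, and NC12G0249520 has overlapping species at stage 3 alone.

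When reads were counted instead of FPKM (whole reads recovered from the deposited values and fitted with limma-voom), the species difference at stage 3 was larger in number, 5717 genes, and 15 genes were set apart, 2 toward N. micrantha and 13 toward N. colorata, and 11 of these were among the 79. Of the named genes set apart, NC12G0249520 and NC3G0197320 kept the call there. Without L1-1, the library that held reads of genes private to N. micrantha, 61 genes were set apart and 433 departed from the mean of the other stages. All 26 named genes kept the sign of the departure under every alternative, and 0 of them kept the call under every alternative.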

How the data were processed

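Leaf RNA was purified with oligo(dT) and sequenced as paired-end reads in 16 libraries, 2 for each of 8 groups of species and stage. The authors deposited FPKM values, for 31475 genes. The submitters' processing notes name CASAVA 1.8, fastp 0.20.0, HISAT2 2.1.0, HTSeq 0.7.2, Cufflinks 2.2.1 and DESeq, whereas the study's methods describe an assembly without a genome, and the genome build is not given in the sources used here. Every deposited FPKM value was a whole number of reads within 0.01 reads (100.00% of values), which gave the totals per library, 24815135 to 51396582 reads over all 16 libraries.

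The main test was limma 3.58.1 in R 4.3.3 on log2(FPKM + 1), fitting 8 group means over all 16 libraries with a trend in the prior variance. Calls required a Benjamini-Hochberg adjusted p under 0.05 and an absolute log2 difference of at least 1. With 2 libraries a group the spread was shared over groups. On the recovered reads limma-voom called 5717 genes at stage 3. The fit across stages used genes at 1 FPKM or more in at least 2 of 16 libraries. Bounds against groups without reads used a floor of 3 reads per library, and ratios of few reads carry exact 95% intervals that cover counting error only.

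Named genes were the 10 annotated called genes with the largest difference at each end at stage 3, the same among genes set apart, the 5 most read genes of each species, the genes with primers or IDs in the study, at most 2 genes without annotation at each end, and, from each list, some of its up to 4 called genes with the largest difference. The members and lists were chosen with earlier results of these data known. Gene functions are those of the study's ontology and pathway tables, 5 of whose lists used here were cut short, and 3938 genes of the table had a term. Alternatives were another pseudocount, other filters, median-ratio scaling, a replicate block, voom, an unadjusted p, the stage 3 libraries alone and each library left out. No sequence is shown.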

Additional observations from a re-analysis of the deposited data

Results flagged for a closer look

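Among the named genes, 40 had a species difference at stage 3 that differed from its mean at stages 1, 2 and 4 by the test of that difference. The values below are that departure on the log2(FPKM + 1) scale, positive toward N. micrantha, and those set apart from each single stage have been described above. In the division and cell death genes the departure was -2.03 for NC1G0181420, -1.54 for NC6G0255960, -1.80 for NC3G0197310, -1.76 for NC3G0197320, -1.42 for NC4G0022340 and -2.81 for NC1G0178950. In genes of flavonoids and other phenylpropanoids it was -2.43 for NC12G0188430, -1.62 for NC12G0188410, -1.48 for NC12G0188420, -2.23 for NC8G0216820, -2.73 for NC3G0226610, -1.78 for NC10G0145170, -1.38 for NC6G0256830, -2.75 for NC2G0009850, -2.97 for NC2G0010340 and -2.79 for NC11G0122260.

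In genes of walls and waxes the departure was -1.11 for NC1G0091020, 2.07 for NC1G0177610 and -1.04 for NC1G0181800. In hormone genes it was 2.40 for NC12G0095590, -1.24 for NC12G0250460, -1.22 for NC8G0240630, -1.56 for NC8G0240640, -2.26 for NC12G0097550, -1.31 for NC7G0175800 and 1.51 for NC5G0159960. The meristem identity gene NC12G0249520 had -1.95.

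In other annotated genes it was 3.52 for NC4G0152260, 2.54 for NC5G0100730, 2.51 for NC1G0131340, 1.84 for NC3G0204140, 1.69 for NC1G0260410, 1.27 for NC4G0030790, 2.26 for NC6G0252890 and -3.66 for NC7G0289580. In genes without annotation it was 4.29 for NC3G0229070, 3.49 for NC7G0247080, 2.98 for NC2G0009170, -3.00 for NC7G0234830 and -2.65 for NC8G0059860.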

How the results depend on the processing

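The species difference at stage 3 stayed mostly toward lower X3 levels under each setting, but its number of calls moved. Its 5082 calls became 3447 with genes detected in both species, 4811 after median-ratio scaling, 5702 with a pseudocount of 0.1 and 5717 with voom, and leaving out each library in turn gave 4707 to 5132 genes (1052 to 1187 higher, 3652 to 3945 lower). Over the lists those fits gave 77 to 90 genes higher and 192 to 213 lower. Of 98 named genes called at stage 3, 83 kept the call and its sign under every alternative, and 8 lists changed the sign of their median after median-ratio scaling. With genes detected in both species, 25 of the 132 counts of higher or lower genes in the lists moved beyond a set margin. After median-ratio scaling 7 did. NC12G0249520, at -0.13 and not called, was at 0.10 after median-ratio scaling, and between -0.31 and 0.055 with each stage 3 library left out (0.00 without L3-1).

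The contrasts of stage 3 with other stages moved more, and the cause was not tested. The 530 genes that departed from the mean of the other stages became 301 (53 more positive, 248 more negative) with genes detected in both species, 320 (54 more positive) with voom and 839 (652 more negative) without the stage 2 libraries, a setting chosen after seeing the data. The departures from stage 1 numbered 449 with genes detected in both species and 409 with voom, and those from stage 2 numbered 204 and 95, and 282 with a pseudocount of 0.1. The 79 genes set apart became 50 with a pseudocount of 0.1 (15 positive, 35 negative), 34 with genes detected in both species (6 and 28) and 15 with voom (2 and 13). After median-ratio scaling 36 negative genes were left. The genes lower in X3 than in other X stages numbered 1340 with a pseudocount of 0.1. With each library left out, the departures ranged from 106 to 843 (42 to 217 positive, 64 to 626 negative), those from stage 1 from 420 to 1247, from stage 2 from 117 to 1504 and from stage 4 from 1694 to 3185. Genes set apart ranged from 25 to 103 (10 to 30 positive, 14 to 73 negative). Within N. micrantha the range was 360 to 697 higher and 621 to 985 lower, and within N. colorata 681 to 1011 higher and 204 to 801 lower.

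Same-numbered libraries of the species did not deviate in the same direction, with correlations of -0.149, -0.492, -0.013 and -0.126 at stages 1 to 4. At stage 2 the same-numbered libraries tended to deviate in opposite directions, and the source of this was not tested. With the number as a replicate block, 5072 genes were called at stage 3, 455 departed from the mean of the other stages and 65 were set apart, and with crossed numbers at stages 1, 2 and 4, chosen after seeing the data, 552 departed and 76 were set apart. The 2 libraries a group limit every contrast, and the X3 libraries held fewer reads than L3.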

Other observations

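Several gene groups of the study not described above were also compared at stage 3, beside 7.04% higher and 23.6% lower over all tested genes. Ribosomes make protein, and the ribosome list had 4 higher and 6 lower of 17 tested genes, with a median log2 difference of -0.08, 7 higher and 4 lower after median-ratio scaling, 6 and 4 without L3-2, and 2 and 6 without X3-2. The clock and the light receptors set daily growth. Circadian rhythm had 3 higher and 8 lower of 25 tested genes, with a median log2 difference of -0.60, and the response to blue light had 1 higher and 8 lower of 15 tested genes, with a median log2 difference of -1.08. In leaf development, leaf morphogenesis had 2 higher and 4 lower of 9 tested genes, with a median log2 difference of -0.64, and leaf senescence had 6 higher and 4 lower of 18 tested genes, with a median log2 difference of 0.17. Shoot apical meristem identity had 1 higher and 2 lower of 7 tested genes, with a median log2 difference of -0.13. The response to hypoxia had 2 higher and 2 lower of 6 tested genes, with a median log2 difference of 0.04 and 1 of each without L3-2, X3-1 or X3-2, and systemic acquired resistance had 3 higher and 4 lower of 13 tested genes, with a median log2 difference of -0.75. The medians of the ribosome and meristem lists changed sign after median-ratio scaling. The study put these genes into lists because they differed between the species.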
